A study of Homo sapiens with 4 samples.

Results

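The keratins KRT5, KRT7, KRT8, KRT10, KRT18 and KRT19, vimentin (VIM) and the lamins LMNA, LMNB1 and LMNB2 were followed in DU145 cells with and without an shRNA against DCUN1D1. Probe sets whose platform annotation names 1 of these 10 genes and no other were taken, which gave 23 probe sets of the 40914 that name exactly 1 gene, in a table of 54715. A probe set reads one transcript through several short probes, and its value is a log2 signal. The established line DU145 comes from a metastasis of a human prostate carcinoma. The 4 arrays comprise 2 of cells carrying the DCUN1D1 shRNA (shDCUN1D1) and 2 of cells carrying an shRNA against GFP (shGFP, the control), all lentivirally transduced, and the records call them biological duplicates. The methods describe more than 1 shRNA to DCUN1D1, without naming the one behind each array. Nothing ties the duplicates to separate transductions, so p values measure only the spread between these arrays. The comparison asks which transcripts differ once DCUN1D1, a neddylation factor that acts on cullins, is reduced.

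Intermediate filaments are the most stable part of the cytoskeleton. Keratins assemble as obligate pairs of a type I chain (here KRT10, KRT18 and KRT19) and a type II chain (KRT5, KRT7 and KRT8), and they mark epithelial cells. Vimentin, a type III chain, is typical of mesenchymal cells and is also made by many carcinoma lines. Lamins line the inside of the nuclear envelope: LMNA encodes lamins A and C by alternative splicing, while LMNB1 and LMNB2 encode the B-type lamins. Fewer cells making a transcript and less of it per cell cannot be told apart in bulk RNA.

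The arrays differed in ways that bear on every value below. A nonspecific control probe set with 20 G or C bases per probe, designed against no human transcript, read 2.48 and 2.51 in shDCUN1D1 replicates 1 and 2, against 2.97 and 3.30 in shGFP replicates 1 and 2. Of the probe sets naming 1 gene, 18.7% and 14.5% lay above it in the shDCUN1D1 arrays, against 8.97% and 6.07% in the shGFP arrays. The 3′ control probe set of GAPDH, a glycolytic enzyme, read 10.82 and 5.09 in shDCUN1D1 cells, against 5.02 and 4.68 in shGFP cells, so that shDCUN1D1 replicate 1 stood apart. The GAPDH 3′ minus 5′ difference was 1.15 and −2.05 in shDCUN1D1 cells, against −1.58 and −1.74 in shGFP cells. The 3′ control of ACTB, an actin, read 8.30 and 4.35, against 4.05 and 3.95. Its 5′ control read 9.21 and 8.79, against 8.52 and 8.06. On the arrays other than shDCUN1D1 replicate 1, 3′ signal was thus far below 5′ signal for both genes. Which arrays were the unusual ones was not tested. The brightest probe set of the targeted gene, DCUN1D1, read 1.6 and 1.45 in shDCUN1D1 cells, against 2.55 and 1.99 in shGFP cells, a log2 fold change of −0.75. Its other probe sets differed in direction. They had 0.12 on 218583_PM_s_at and 0.07 on 242428_PM_at, with overlapping groups, and −0.47, −0.19 and −0.11 on the rest. A nonspecific control with 17 G or C bases read 1.80 and 1.92 in shDCUN1D1 cells, against 2.19 and 2.34 in shGFP cells. The brightest DCUN1D1 probe set exceeded that one in shGFP replicate 1 only, and 218583_PM_s_at in shDCUN1D1 replicate 1 only. The G and C content of the DCUN1D1 probes was not known. None of the 6 DCUN1D1 probe sets exceeded the nonspecific control with 20 G or C bases on any array. The knockdown was therefore not judged from signal above that level. EPCAM, CDH1, CLDN4 and CLDN7, the other epithelial markers examined, were likewise below the nonspecific control on all 4 arrays. Probe sets of KRT14 and KRT15 (basal keratins), PECAM1, VWF and CDH5 (endothelial) and PTPRC, CD3E and CD14 (leukocyte) were below it as well, and 2 of 16 luminal prostate marker probe sets, of KLK3 and TMPRSS2, exceeded it on some arrays. Of 19 fibroblast marker probe sets, 17 exceeded it on no array and 1, of COL1A1, on all 4. The COL1A1 probe set above it on all 4, 217430_PM_x_at, had a log2 fold change of 0.41 with overlapping groups. Another COL1A1 probe set, 202312_PM_s_at, read 2.12 and 1.31 in shDCUN1D1 cells, against 3.09 and 4.03 in shGFP cells, above the control in shGFP cells only. Its log2 fold change of −1.85 was past the fold bound explained in the next paragraph. The remaining COL1A1 probe sets, below the control throughout, had 0.25, −0.07 and −0.03 and were not past the bound. Some KRT8 and LMNA probe sets described below moved in the same direction as 202312_PM_s_at, and whether these differences are related was not tested.

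A difference is given as the log2 fold change, shDCUN1D1 minus shGFP. A probe set is called past the fold bound when its fold change, in either direction, exceeds 1.2 at the lower 90% confidence limit. The rule comes from the methods, but the standard error (SE) is limma's and not dChip's. It is not adjusted for the number of probe sets. Where a group lay below the nonspecific control, the log2 fold change is a difference of measured signals at background. Background here means a signal below the control with 20 G or C bases, and controls with fewer such bases mostly read lower. Of all 40914, 3.74% were higher and 4.24% lower past this bound (7.98% in either direction). By comparison, limma's adjusted p called 0 (smallest adjusted p = 0.62), with 3085 (7.54%) at an unadjusted p under 0.05, and the methods' t-test called 1 after Benjamini–Hochberg adjustment. Of the 23 keratin, vimentin and lamin probe sets, 2 were higher past the bound (VIM and KRT10, 1 probe set each) and 2 lower (KRT8 and LMNA, 1 each), and 3 had an unadjusted p under 0.05. Their adjusted p values from limma lay between 0.62 and 0.99. With 2 arrays a group, the smallest p that an exact two-sided permutation test allows is 0.333.

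Both shDCUN1D1 arrays lay below both shGFP arrays for 9 of the 23 probe sets, against 25.0% of all probe sets, and above both for 3, against 17.9% of all. The 9 belong to KRT7, KRT8, KRT19 (2 probe sets), VIM, LMNA (3) and LMNB2, and the 3 to KRT10, KRT18 and VIM. The median log2 fold change of the 23 was −0.12, and that of all probe sets −0.01. Above the nonspecific control on all 4 arrays were 6 of the 23, 4 of them of LMNA and 1 each of KRT8 and VIM, against 4.39% of all probe sets. Another 11 were above it on none, as were 76.1% of all.

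**Figure D1:**
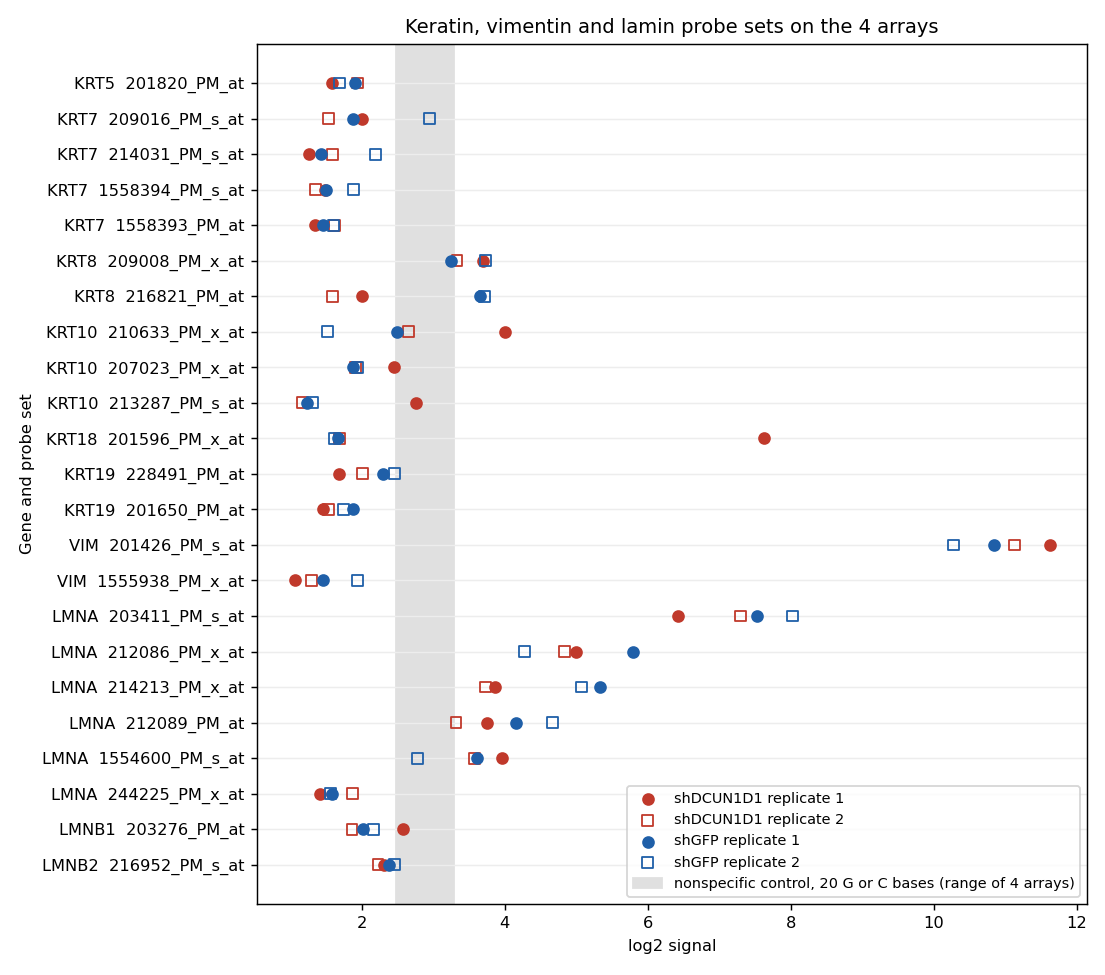
Log2 signal of the 23 probe sets (rows) in each of the 4 arrays, shDCUN1D1 in red and shGFP in blue, with the range of the nonspecific control (20 G or C bases per probe) shaded. The VIM probe set on the right reads 11.62 and 11.13 in shDCUN1D1 cells and 10.85 and 10.28 in shGFP cells, and KRT18 reads 7.62 in shDCUN1D1 replicate 1 alone.

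The 4 genes with a probe set past the bound are VIM, KRT10, KRT8 and LMNA. The 250 bases before an annotated start of each are printed here from RefSeq (GRCh38.p14), as a description of sequence. Whether these starts are the ones used in DU145 cells was not tested. Capitals mark matches, on either strand, to the GC box GGGCGG, the TATA box TATAAA and the CCAAT box CCAAT, and the AP-1 motif TGACTCA was searched too. Of 10 genes, 7 have an entry in the promoter table, and LMNA has 3 starts, of which the first is shown.
VIM (chr10:17227991-17228240, plus strand): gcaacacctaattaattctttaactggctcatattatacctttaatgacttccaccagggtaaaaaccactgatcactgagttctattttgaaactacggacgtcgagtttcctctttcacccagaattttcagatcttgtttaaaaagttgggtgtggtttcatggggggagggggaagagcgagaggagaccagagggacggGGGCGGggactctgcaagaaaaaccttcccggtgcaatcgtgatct
KRT10 (chr17:40822615-40822864, minus strand): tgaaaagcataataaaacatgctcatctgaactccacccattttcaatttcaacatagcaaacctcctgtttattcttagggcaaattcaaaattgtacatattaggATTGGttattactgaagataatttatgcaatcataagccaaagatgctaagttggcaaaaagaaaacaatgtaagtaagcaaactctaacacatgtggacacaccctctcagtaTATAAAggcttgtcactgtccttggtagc
KRT8 (chr12:52926470-52926719, minus strand): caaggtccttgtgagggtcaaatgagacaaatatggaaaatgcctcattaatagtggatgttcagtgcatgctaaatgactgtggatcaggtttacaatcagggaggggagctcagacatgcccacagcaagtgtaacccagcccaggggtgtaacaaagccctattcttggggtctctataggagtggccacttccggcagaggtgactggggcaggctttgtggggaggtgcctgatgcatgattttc
LMNA (chr1:156082323-156082572, plus strand): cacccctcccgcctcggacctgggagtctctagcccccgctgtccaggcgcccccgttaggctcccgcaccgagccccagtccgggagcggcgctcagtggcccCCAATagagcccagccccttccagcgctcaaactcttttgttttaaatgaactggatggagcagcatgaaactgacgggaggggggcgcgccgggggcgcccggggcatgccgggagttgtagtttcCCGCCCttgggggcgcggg
The VIM window holds 1 GC box and that of LMNA 1 GC box and 1 CCAAT box. The KRT10 window holds 1 TATA box and 1 CCAAT box, while in the KRT8 window none of the 4 motifs was matched. G and C make up 46% of the VIM window, 34.8% of that of KRT10, 50.4% of that of KRT8 and 68.8% of that of LMNA. Over all 35116 windows of this length, 42.6% hold the GC box, 10.7% the TATA box, 32% the CCAAT box and 4.2% the AP-1 motif. A match is a description of the sequence, and whether a factor binds there was not measured.

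Vimentin gave a strong signal in every array. Its probe set 201426_PM_s_at read 11.62 and 11.13 in shDCUN1D1 replicates 1 and 2, against 10.85 and 10.28 in shGFP replicates 1 and 2. The groups did not overlap, and each shDCUN1D1 array was above each shGFP array. The means were 11.37 ± 0.35 in shDCUN1D1 cells and 10.56 ± 0.40 in shGFP cells (SD, n = 2 each), a log2 fold change of 0.81 (SE 0.27, limma adjusted p = 0.62) or 1.75-fold, higher past the bound with a lower 90% bound of 1.33. Without shDCUN1D1 replicate 1 the log2 fold change was 0.56 and without shGFP replicate 2 it was 0.53, and in neither case was it past the bound. After quantile normalization, which gives all arrays one distribution, it was 0.63 and not past the bound. The second VIM probe set, 1555938_PM_x_at, was at background: it read 1.06 and 1.29 in shDCUN1D1 cells, against 1.46 and 1.94 in shGFP cells, all below the nonspecific control. Its log2 fold change of −0.52 (SE 0.21) had a lower 90% bound of 1.16, just short of the cut-off, and went the opposite way to the bright probe set. Averaged over both, VIM differed by a log2 fold change of 0.14.

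KRT8 and KRT18 are the keratin pair of simple and glandular epithelia. KRT8 has the probe sets 209008_PM_x_at, which the platform annotation ties to an mRNA record, and 216821_PM_at, for which it gives no record. The designation of 209008_PM_x_at carries an x, the array maker's mark for probes that may also match other transcripts, as do those of 8 of the 23 probe sets. RefSeq lists 52 pseudogenes named after KRT8 and 68 named after KRT18, and which of these the probes also bind was not tested.

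KRT8 on 209008_PM_x_at read 3.70 and 3.33 in shDCUN1D1 cells, against 3.25 and 3.73 in shGFP cells. The groups overlapped fully, with a log2 fold change of 0.02 (SE 0.45), and its sign turned after quantile normalization (−0.22). On 216821_PM_at KRT8 read 2.0 and 1.59 in shDCUN1D1 cells, against 3.66 and 3.72 in shGFP cells. Both shDCUN1D1 values lay below the nonspecific control and both shGFP values above it. The log2 fold change was −1.89 (SE 0.33, limma adjusted p = 0.62), with a lower 90% bound of 2.66. With the nonspecific control of each shDCUN1D1 array in place of the dim signal, the KRT8 probe set was 2.29-fold lower in shDCUN1D1 cells. This is a lower limit only if that control is the right background, and the G and C content of these probes was not known. The control with 22 G or C bases read 3.39 and 3.63 in shDCUN1D1 cells. In shGFP cells it read 4.08 and 4.29, above the KRT8 values there. It was the one probe set of the 23 that remained past the bound with any single array left out, at log2 fold changes of −2.09 to −1.69. Averaged over both probe sets, KRT8 differed by a log2 fold change of −0.93.

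KRT18, the type I partner of KRT8, has 1 probe set, 201596_PM_x_at. It read 7.62 and 1.69 in shDCUN1D1 replicates 1 and 2, against 1.68 and 1.63 in shGFP replicates 1 and 2. Only shDCUN1D1 replicate 1 was high, 5.93 log2 above the next array, while the other 3 arrays lay within 0.064 of each other and below the nonspecific control. The mean log2 fold change of 3.0 had an SE of 1.90 and was not past the bound (lower 90% bound 1.15, limma adjusted p = 0.62). Without shDCUN1D1 replicate 1 it was 0.04, and without shDCUN1D1 replicate 2 it was 5.97 with an adjusted p of 0.00265 from limma, a fit in which the lone shDCUN1D1 array is assumed to vary like the shGFP arrays. Across the table, 1416 probe sets (3.46%) were more than 2 log2 higher in shDCUN1D1 replicate 1 than in each other array, and KRT18 was the one member among them. The 3′ GAPDH control had the same profile, and its part in the KRT18 value was not tested.

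KRT10, a keratin of the suprabasal epidermis, had higher signal mainly in the same array. Its probe set 210633_PM_x_at read 4.0 and 2.65 in shDCUN1D1 cells, against 2.49 and 1.52 in shGFP cells. The groups did not overlap, but shDCUN1D1 replicate 2 and shGFP replicate 1 were only 0.16 apart. The log2 fold change was 1.32 (SE 0.60, limma adjusted p = 0.62), with a lower 90% bound of 1.36. Both shGFP values lay below the nonspecific control. Against that control, if it is the right background, the signal was at least 1.14-fold higher in shDCUN1D1 cells. This limit came from shDCUN1D1 replicate 1: replicate 2 alone lay 0.48 log2 below the mean shGFP control, which leaves no lower limit without replicate 1. Without shDCUN1D1 replicate 1 the log2 fold change was 0.65, and without shGFP replicate 2 it was 0.84, neither past the bound. KRT10 on 213287_PM_s_at read 2.76 and 1.18 in shDCUN1D1 cells, against 1.23 and 1.31 in shGFP cells, with overlapping groups. On 207023_PM_x_at it read 2.45 and 1.91 in shDCUN1D1 cells, against 1.89 and 1.94 in shGFP cells. On both probe sets shDCUN1D1 replicate 1 was the highest array, and without it the log2 fold changes were −0.10 and −0.0026.

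KRT19, the smallest keratin, made by simple and ductal epithelia, was lower on both of its probe sets at background level. The probe set 228491_PM_at read 1.68 and 2.01 in shDCUN1D1 cells, against 2.30 and 2.46 in shGFP cells, a log2 fold change of −0.53 (SE 0.24). On 201650_PM_at KRT19 read 1.46 and 1.53 in shDCUN1D1 cells, against 1.88 and 1.74 in shGFP cells, a log2 fold change of −0.32 (SE 0.16). The groups did not overlap on either, and neither was past the bound. Near this level, the nonspecific control with 17 G or C bases read 1.80 and 1.92 in shDCUN1D1 cells, against 2.19 and 2.34 in shGFP cells. Of 23 nonspecific controls, 20 were lower on both shDCUN1D1 arrays, with a median difference of −0.29, and their part in the KRT19 values was not tested.

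KRT7, a type II keratin of ductal and glandular epithelia, has 4 probe sets, all below the nonspecific control on all 4 arrays, with values between 1.26 and 2.95. All 4 had a negative log2 fold change, from −0.64 to −0.05, and none was past the bound. The largest, of 209016_PM_s_at, came from shGFP replicate 2: the probe set read 2.01 and 1.53 in shDCUN1D1 cells, against 1.88 and 2.95 in shGFP cells, and without that array the log2 fold change of −0.64 became −0.11. KRT5, the type II keratin of basal cells, read 1.58 and 1.94 in shDCUN1D1 cells, against 1.91 and 1.69 in shGFP cells. The groups overlapped, with a log2 fold change of −0.03 (SE 0.22).

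**Figure D2:**
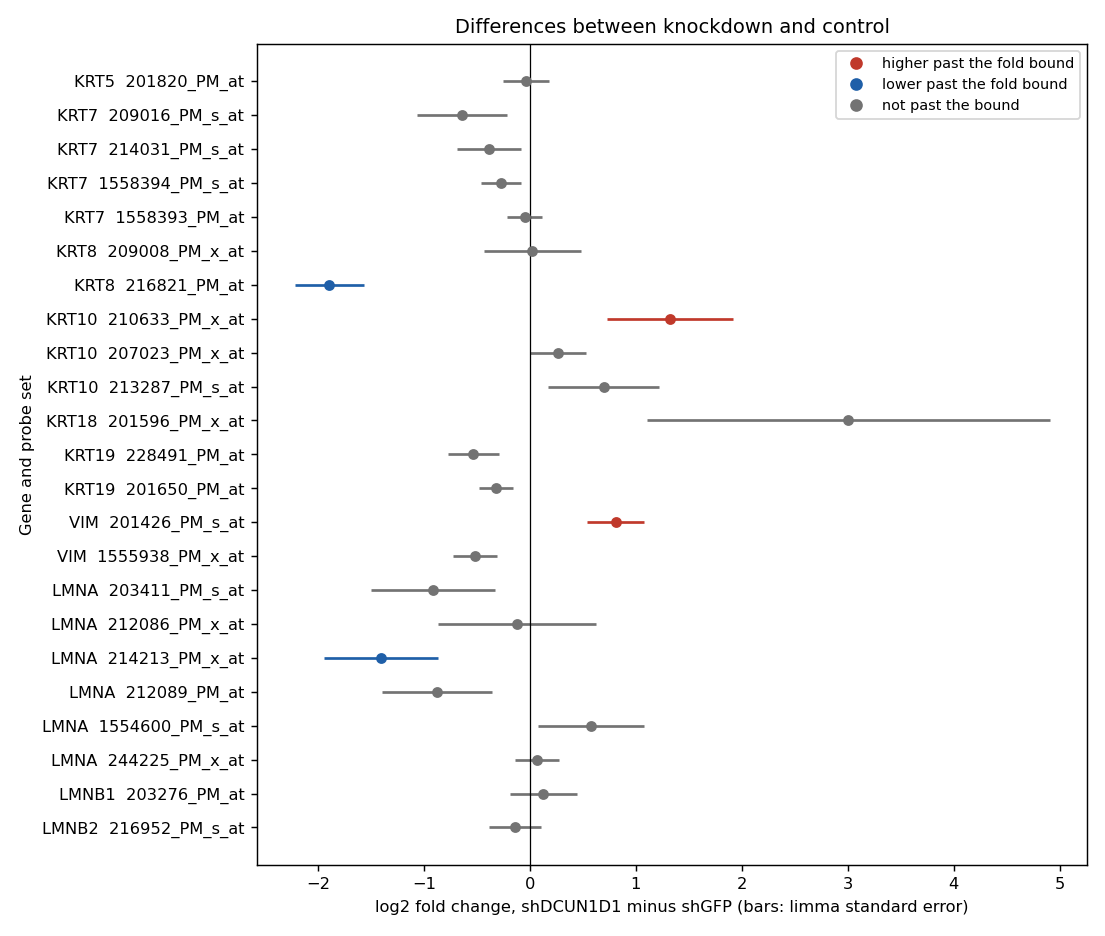
Log2 fold change, shDCUN1D1 minus shGFP, of each of the 23 probe sets (rows), with limma's standard error as the bar. The probe sets higher past the fold bound (red, KRT10 at 1.32 and VIM at 0.81) and lower (blue, KRT8 at −1.89 and LMNA at −1.40) each have a sister probe set that is not past it.

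LMNA was represented by 6 probe sets, 4 of them above the nonspecific control on all 4 arrays, against 4.39% of all probe sets. Of these 4, 3 read lower in both shDCUN1D1 arrays than in either shGFP array, against 25.0% of all probe sets. Only 1 of the 6 was past the bound. The brightest, 203411_PM_s_at, which the annotation ties to the RefSeq transcript of lamin C, read 6.42 and 7.30 in shDCUN1D1 replicates 1 and 2, against 7.53 and 8.02 in shGFP replicates 1 and 2. The groups did not overlap, with shDCUN1D1 replicate 1 lowest. The log2 fold change was −0.92 (SE 0.59, limma adjusted p = 0.63), not past the bound at a lower 90% bound of 1.04. After quantile normalization it was −1.63 and past the bound. The LMNA probe set 212089_PM_at, tied to a lamin A record, read 3.75 and 3.32 in shDCUN1D1 cells, against 4.16 and 4.67 in shGFP cells. Its log2 fold change of −0.88 (SE 0.52) was not past the bound, and it was −1.32 and past it after quantile normalization. Which splice form each of these sets detects was not analysed here.

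LMNA on 214213_PM_x_at read 3.86 and 3.74 in shDCUN1D1 cells, against 5.33 and 5.08 in shGFP cells. Replicates differed by at most 0.26 in either group, and the groups lay 1.21 apart at their nearest. The log2 fold change was −1.40 (SE 0.54, limma adjusted p = 0.62), lower past the bound with a lower 90% bound of 1.52. Left-out arrays gave log2 fold changes of −1.53 to −1.28, and the probe set was no longer past the bound without either shGFP array.

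The remaining LMNA probe sets were not past the bound, and differences between probe sets were not tested. On 212086_PM_x_at LMNA read 4.99 and 4.84 in shDCUN1D1 cells, both within the shGFP values of 5.79 and 4.28, with a log2 fold change of −0.12 (SE 0.74). It was −0.68 after quantile normalization, not past the bound, and between −0.88 and 0.64 with an array left out. On 1554600_PM_s_at it read 3.97 and 3.57 in shDCUN1D1 cells, against 3.61 and 2.78 in shGFP cells, a log2 fold change of 0.57 (SE 0.50) with overlapping groups. The sixth, 244225_PM_x_at, stayed between 1.41 and 1.87 and below the nonspecific control. Averaged over all 6, LMNA differed by a log2 fold change of −0.45. LMNB1, a B-type lamin that cycling cells make in quantity, read 2.58 and 1.87 in shDCUN1D1 cells, against 2.01 and 2.17 in shGFP cells, and overlapped. LMNB2 read 2.32 and 2.23 in shDCUN1D1 cells, against 2.38 and 2.46 in shGFP cells, below the nonspecific control throughout, with a log2 fold change of −0.14 (SE 0.25).

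**Figure D3:**
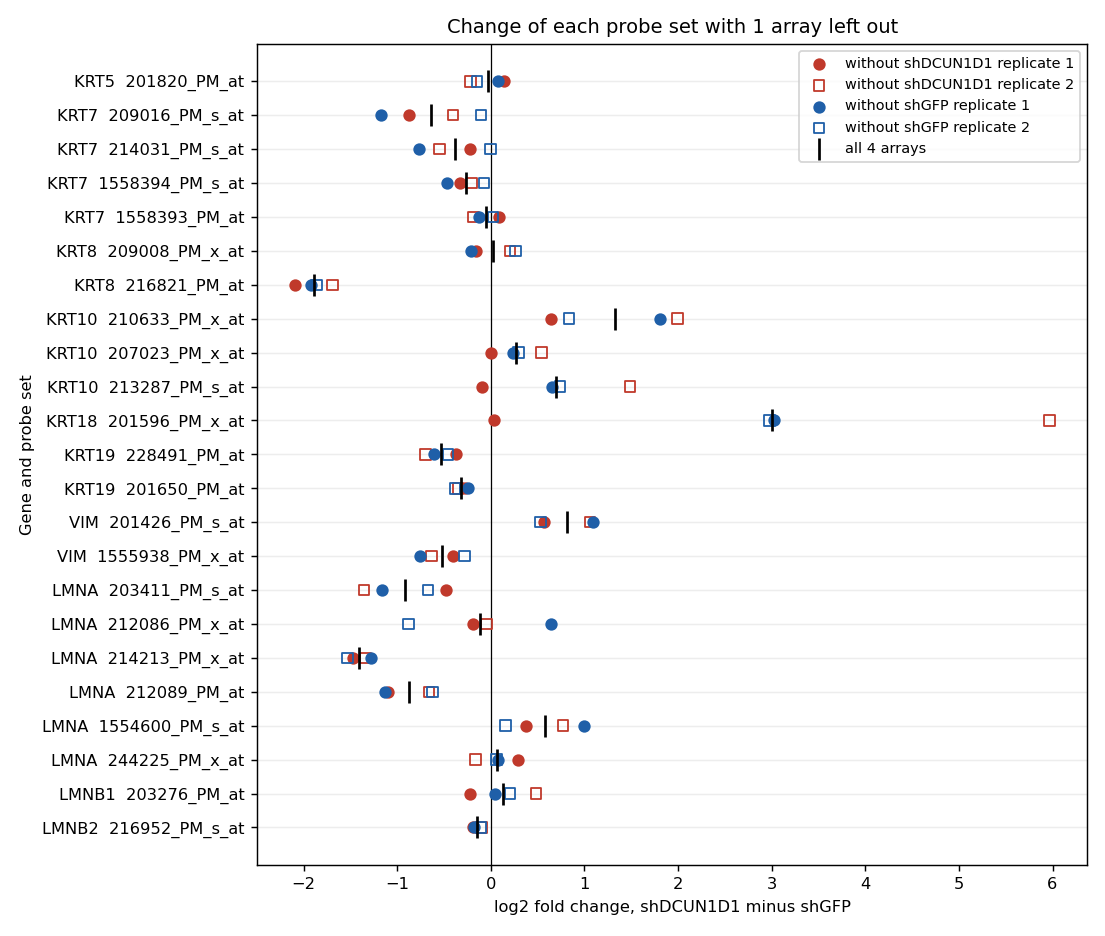
Log2 fold change, shDCUN1D1 minus shGFP, of each probe set (rows) with all 4 arrays (black bar) and with each array left out in turn (symbols). KRT18 moves from 0.04 to 5.97 depending on which shDCUN1D1 array is left out, while KRT8 on 216821_PM_at stays between −2.09 and −1.69.

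**Figure D4:**
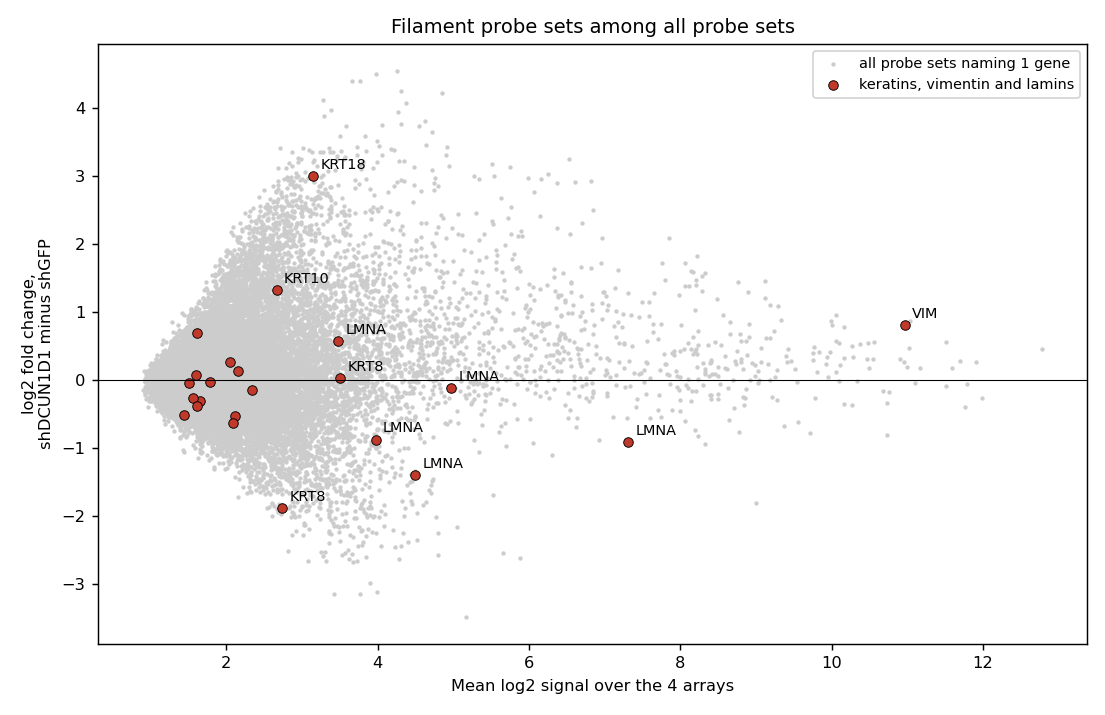
Log2 fold change, shDCUN1D1 minus shGFP, plotted over each probe set's mean log2 signal in 4 arrays, for all 40914 probe sets (grey) and the 23 keratin, vimentin and lamin probe sets (red). VIM lies far right at a log2 fold change of 0.81, and the brightest LMNA probe set at −0.92.

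The probe sets of other genes closest to the brightest ones of VIM, LMNA, KRT8 and KRT18, by mean absolute difference of log2 signal over the 4 arrays, were named as a description. Nearest to VIM were RPS3A, a ribosomal protein, at 0.14, and PABPC1, the poly(A)-binding protein, at 0.27. RPS3A read 11.78 and 11.15 in shDCUN1D1 cells, against 10.70 and 10.50 in shGFP cells. Nearest to LMNA were REXO2 (0.29), a mitochondrial oligoribonuclease, and HNRNPDL (0.36), an RNA-binding protein. KRT8 on 209008_PM_x_at had PHF1 (0.08) and TMEM208 (0.08) beside it. For KRT18 both nearest were probe sets of RAB5IF, each at 0.11, and that on 223880_PM_x_at read 7.61 and 1.87 in shDCUN1D1 cells, against 1.65 and 1.86 in shGFP cells.

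Of 25 other type I keratins listed, 21 had a probe set naming them alone, as had 17 of 23 other type II keratins, and the rest were not analysed here. Their 23 type I and 20 type II probe sets all lay below the nonspecific control on all 4 arrays, as did 76.1% of all probe sets. None was past the fold bound, against 7.98% of all. The brightest were KRT32 and KRT85, both hair keratins, with log2 fold changes of −0.05 and −0.36. Among 20 probe sets of 12 other cytoplasmic filament proteins, 0 were higher and 2 lower past the bound, against 3.74% and 4.24% of all. The 2 were of synemin (SYNM), a large filament protein that associates with vimentin and desmin, with −1.07 (SE 0.50) on 214304_PM_x_at, and of the neurofilament chain NEFH with −0.48 (SE 0.10) on 204412_PM_s_at. SYNM read 1.35 and 1.34 in shDCUN1D1 cells, against 1.68 and 3.15 in shGFP cells, and neither gene exceeded the nonspecific control there. Without shGFP replicate 2 the SYNM value was −0.34, and the other SYNM probe set, 212730_PM_at, had 0.49 (SE 0.29), with both shDCUN1D1 arrays above both shGFP arrays and not past the bound. Desmin (DES), the muscle filament and the brightest of that list, read 2.20 and 3.12 in shDCUN1D1 cells, against 2.56 and 5.09 in shGFP cells, and overlapped.

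Filament linkers and desmosome proteins had 3 of 58 probe sets higher (5.17%) and 0 lower past the bound, near the 3.74% higher of all probe sets, with 4.24% of all lower. MACF1, which links actin and microtubules, had 1.66 (SE 0.88) on 208634_PM_s_at, and DSG2, a desmosomal cadherin, 1.30 (SE 0.69) on 217901_PM_at. MACF1 there read 4.94 and 2.35 in shDCUN1D1 cells, against 2.20 and 1.77 in shGFP cells, and DSG2 read 3.72 and 1.69 in shDCUN1D1 cells, against 1.64 and 1.16 in shGFP cells. In both, shDCUN1D1 replicate 1 was over 2 log2 above each other array. The shGFP values of both were below the nonspecific control. Against that control, if it is the right background, MACF1 was at least 1.42-fold higher in shDCUN1D1 cells. No lower limit was left for MACF1 without shDCUN1D1 replicate 1, and DSG2 had none. The other MACF1 probe sets, from −0.33 to 1.39, and the other DSG2 probe set, with 0.19, were not past the bound. The plaque protein PKP4 had 0.86 (SE 0.36) on 201929_PM_s_at and was highest in shDCUN1D1 replicate 2. It read 1.86 and 2.67 in shDCUN1D1 cells, against 1.69 and 1.11 in shGFP cells. Only shDCUN1D1 replicate 2 exceeded the nonspecific control, which left no lower limit on the fold. The other PKP4 probe sets were not past the bound, with 0.37 on the brighter 201928_PM_at and −0.03 to 0.12 on the rest. The brightest probe set of the list, also of MACF1, overlapped with −0.16.

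Proteins that process lamins or join the lamina had 4 of 52 probe sets higher (7.69%) and 0 lower past the bound, against 3.74% and 4.24% of all probe sets. The median log2 fold change of the 52 was 0.07. LEMD3, an inner nuclear membrane protein that binds lamins, read 2.85 and 3.43 in shDCUN1D1 cells, against 2.03 and 1.95 in shGFP cells. Both shDCUN1D1 values exceeded the nonspecific control and neither shGFP value did, and the measured signals differed by 1.15 log2 (SE 0.33, limma adjusted p = 0.62). Against the nonspecific control of the shGFP arrays, which averaged 3.13, the shDCUN1D1 mean of 3.14 was level. The lower limit on the fold was thus 1.00, if that control is the right background. Replicate 1, at 2.85, lay below 3.13, and replicate 2 alone, at 3.43, gave a limit of 1.22-fold. ICMT, the methyltransferase that completes the farnesylated end of prelamin A and B-type lamins, had 0.79 (SE 0.30) on 201609_PM_x_at. TOR1A, an ATPase of the nuclear envelope, had 0.95 (SE 0.42) on 202348_PM_s_at, and 0.41 without shDCUN1D1 replicate 1. The shGFP values of both probe sets were below the nonspecific control, which left no lower limit on either fold. The other ICMT probe sets had 0.16, 0.04 and −0.27, the last with both shDCUN1D1 arrays below both shGFP arrays. The other TOR1A probe sets had 0.35 and 0.12, and none of these was past the bound. The nesprin SYNE1 had 0.63 (SE 0.22) on 244070_PM_at, below the nonspecific control throughout. Its other probe sets were not past the bound and differed in direction. They had 0.79 on 209447_PM_at, −0.37 on 244144_PM_at with both shDCUN1D1 arrays below both shGFP arrays, and −0.05 and 0.05 on the rest. SUN2, which bridges lamins to the cytoskeleton and is the brightest of the list, read 3.57 and 3.71 in shDCUN1D1 cells, against 4.22 and 4.50 in shGFP cells, a log2 fold change of −0.72 (SE 0.49) that was not past the bound.

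**Figure D5:**
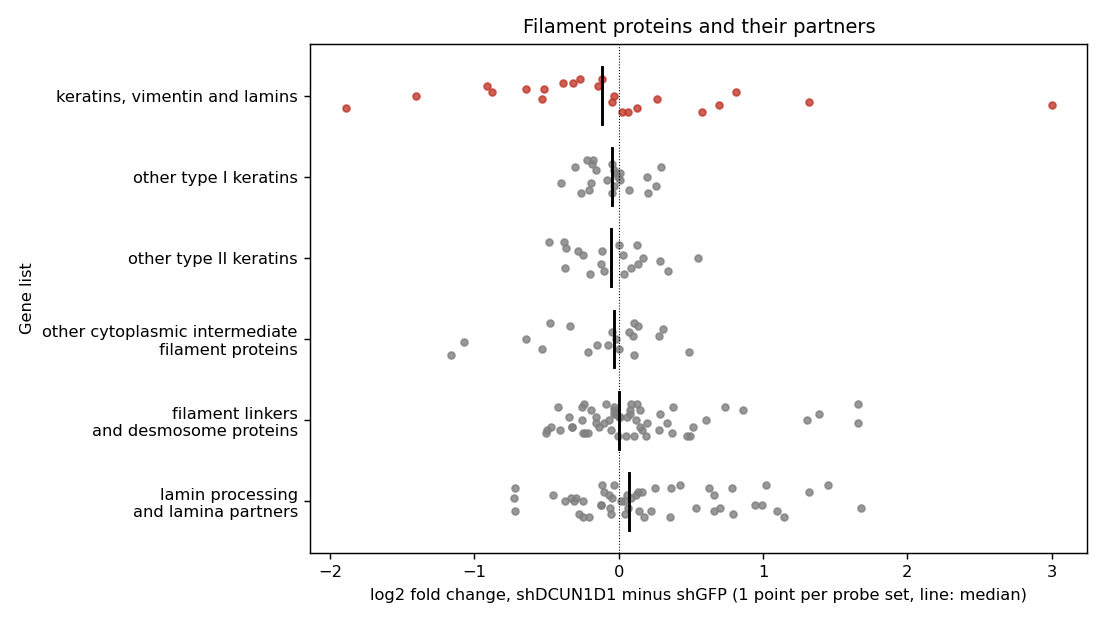
Log2 fold change, shDCUN1D1 minus shGFP, of each probe set (points) in the keratin, vimentin and lamin set (red) and in 5 related gene lists (grey), with the median as a black line. The medians lie between −0.12 and 0.07, and the points farthest out in the red row are KRT8 at −1.89 and KRT18 at 3.0.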

How the data were processed

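Affymetrix arrays with 1 channel measured RNA of DU145 cells, 2 arrays per group. The authors deposited 1 table of log2 signal per probe set and array. Expression Console is named in the submitters' processing notes and dChip, with a smoothing spline, in the methods, and which made the table is not settled. The scale was taken as log2 from its range. An array has no read depth: precision rests on 2 arrays a group and on signal over background. Gene names came from the platform annotation, and 40858 of 40914 naming 1 gene were matched by gene ID to RefSeq, with 0 symbols updated. Those naming several genes (864) or none (12835) and 102 controls were left out. Every probe set naming 1 gene was fitted in limma 3.58.1 (R 4.3.3), allowing the variance to follow the mean signal, with Benjamini–Hochberg adjusted p values called at 0.05, without further scaling. The bound on the fold used the moderated standard error and a one-sided 90% t quantile. The fit was tested on simulated data. The genes and lists were chosen with earlier results of these data known. Named were all member probe sets, up to 4 genes per list past the bound with groups apart, the brightest of each list, and 2 neighbours for each of KRT8, KRT18, VIM and LMNA. Alternatives were quantile normalization, median centring, filters on dim probe sets, no variance trend, a replicate block and an unmoderated standard error. Others were a t-test, 1 probe set per gene, gene means over probe sets, and leaving out each array. The image files were not used here, so no other background correction was tried.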

Additional observations from a re-analysis of the deposited data

How the results depend on the processing

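Of 243 values of single member probe sets under the alternatives, 204 kept their direction and their side of the fold bound, 13 changed sign, 15 newly passed the bound and 11 no longer did. KRT8 on 209008_PM_x_at changed sign after quantile normalization (−0.22) and as the mean of both its probe sets (−0.93). Leaving out each array gave −0.22 to 0.26 for that probe set, −0.21 to 0.15 for KRT5, −0.19 to 0.089 for KRT7 on 1558393_PM_at, −0.0026 to 0.54 and −0.10 to 1.49 for KRT10 on 207023_PM_x_at and 213287_PM_s_at, −0.88 to 0.64 and −0.16 to 0.29 for LMNA on 212086_PM_x_at and 244225_PM_x_at, and −0.23 to 0.48 for LMNB1, each as a log2 fold change with a sign change. The count of 2 member probe sets higher past the bound became 0 with the unmoderated standard error and with gene means, and 0 to 4 with an array left out. The count of 2 lower became 4 after quantile normalization and without a variance trend, 0 with 1 probe set per gene, 1 with gene means, and 1 to 5 with an array left out. Over all probe sets, 1529 higher became 657 with the unmoderated standard error, 888 with 1 probe set per gene, 568 with gene means, 765 among those above the nonspecific control on 1 or more arrays (a filter chosen after seeing the data) and 252 to 4655 with an array left out, the lowest without shGFP replicate 2 and the highest without shDCUN1D1 replicate 2. The 1735 lower became 754 with gene means and 765 under that filter. Fewer features were tested with 1 probe set per gene, with gene means and under that filter. By limma's adjusted p, 0 to 2581 were higher and 0 to 21 lower with an array left out, the highest counts without shDCUN1D1 replicate 2, where KRT18 and KRT10 on 213287_PM_s_at were among the higher ones. The t-test gave 794 higher and 2134 lower at an unadjusted p under 0.05, and limma 939 and 2146. After Benjamini–Hochberg the t-test called 1 higher and 0 lower. With the replicate number as a replicate block, 3 member probe sets were higher and 3 lower past the bound, and 1815 and 1466 of all. The replicates share only a number: differences between replicates 1 and 2 in the 2 groups correlated at r = −0.04 over probe sets. With 31122 of 40914 probe sets below the nonspecific control on all 4 arrays, the signal of most keratins limits what can be compared.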
